A study of Homo sapiens with 9 samples.

Results

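The genes described here are 33 components of the unfolded protein response and of protein quality control in the endoplasmic reticulum (ER), given as a list and measured in A549 cells after knockdown of NRF2. A gene counted as measured when a probe set (the group of array probes that reads 1 transcript) was annotated to it alone. Of several such probe sets the brightest by mean over the 9 arrays stood for the gene, and the others served as a check. Of the 33 listed genes 32 were measured, among 19775 genes in all. The only annotated probe set of SYVN1 also carried the name of another gene, so SYVN1 was not analysed here.

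The ER folds secreted and membrane proteins with the help of chaperones, lectins and disulfide isomerases, and sends those that fail to fold to the cytosol for degradation. When unfolded proteins build up, 3 membrane sensors respond: IRE1 (gene ERN1) splices the XBP1 mRNA, PERK (gene EIF2AK3) slows translation and raises ATF4, and ATF6 is cut by the Golgi proteases encoded by MBTPS1 and MBTPS2 to release a transcription factor. Secretory epithelial cells such as those of the lung rely on this response to match folding capacity to load. NRF2, the transcription factor of the antioxidant response, is also known as a substrate of PERK.

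A549 is an established human lung adenocarcinoma line, known to carry a KEAP1 mutation that leaves NRF2 constitutively active. In the 3 groups, 3 cultures each, cells received an siRNA against NRF2 (Nrf2 siRNA, 25 nM), a non-targeting siRNA (NS siRNA, 25 nM) or the transfection reagent alone (mock), and were harvested for RNA 96 h later. The labels call the 3 samples of a group biological replicates, and all 3 groups went through the change to antibiotic-free medium before transfection. The labels give no siRNA sequence and name 1 NRF2 siRNA treatment, and no rescue group is among the samples used here. Each RNA sample was read on its own oligonucleotide array, and the values are log2 expression levels.

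NFE2L2, which encodes NRF2, read 10.12, 10.32 and 10.30 in Nrf2 siRNA, against 12.09, 12.03 and 12.15 in NS siRNA and 12.07, 11.92 and 11.98 in mock. Its level was therefore 27.9% of NS siRNA and 30.0% of mock. The array medians lay between 7.51 and 7.57, and arrays of different groups correlated at 0.984 to 0.9937 across probe sets, below the 0.9979 to 0.9987 within groups. The 5 epithelial markers read from 9.68 to 15.00 in Nrf2 siRNA, 9.30 to 14.94 in NS siRNA and 8.59 to 14.89 in mock. Of these, 3 were higher in Nrf2 siRNA than in NS siRNA (21% of all genes) and 4 higher than in mock (16.4%). Of the other cell types, the leukocyte marker PTPRC read 7.20 to 7.33 in Nrf2 siRNA, 7.18 to 7.36 in NS siRNA and 7.06 to 7.26 in mock, and without detection calls such levels cannot be called background. The summed linear signal of 9 leukocyte, endothelial and fibroblast markers was 2221 to 2396 in Nrf2 siRNA, 2163 to 2170 in NS siRNA and 1999 to 2142 in mock. CD14 (difference 0.96 against NS siRNA and 0.99 against mock) and CDH5 were the 2 of these 9 called higher in Nrf2 siRNA against each control. Over all genes 21% were called higher against NS siRNA and 16.4% against mock. The part of CD14 and CDH5 in the results was not tested. In bulk RNA, fewer cells of a kind and less RNA per cell cannot be told apart.

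ER stress factors are known to act through short promoter elements, so matches were looked up in RefSeq promoters of GRCh38.p14, from 250 bases before to 50 bases after the start of a gene. A promoter was found for 29 of the 32 genes, and PDIA3, DERL1 and DERL3 had none. The ER stress element (ERSE, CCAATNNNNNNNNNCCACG), through which ATF6 acts with the CCAAT-binding factor NF-Y, matched 6 of the 29 promoters (20.7%), against 22 of 27305 promoters in all (0.0806%). The related ERSE-II (ATTGGNCCACG) matched 3 (10.3%), against 15 of all (0.0549%). The 5 promoters below are shown because carriers of these matches were both called and not called against NS siRNA by their brightest probe sets. Each line runs 5′ to 3′ along the gene over the 250 bases before its start, and capitals mark the fixed bases of ERSE in XBP1, HSP90B1 and HSPA5 and of ERSE-II in HERPUD1 and HYOU1.
XBP1 at chr22:28800570-28800819 (- strand): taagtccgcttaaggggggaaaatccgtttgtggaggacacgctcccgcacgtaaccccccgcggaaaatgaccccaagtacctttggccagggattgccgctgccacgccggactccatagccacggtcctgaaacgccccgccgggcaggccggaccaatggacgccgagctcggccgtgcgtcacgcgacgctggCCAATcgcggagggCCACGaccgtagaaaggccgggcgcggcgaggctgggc
HERPUD1 at chr16:56931892-56932141 (+ strand): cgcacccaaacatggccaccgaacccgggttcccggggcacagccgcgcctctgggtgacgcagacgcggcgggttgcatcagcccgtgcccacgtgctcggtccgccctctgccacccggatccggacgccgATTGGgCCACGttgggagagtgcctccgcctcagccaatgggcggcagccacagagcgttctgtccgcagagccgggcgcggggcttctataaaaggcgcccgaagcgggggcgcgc
HSP90B1 at chr12:103930160-103930409 (+ strand): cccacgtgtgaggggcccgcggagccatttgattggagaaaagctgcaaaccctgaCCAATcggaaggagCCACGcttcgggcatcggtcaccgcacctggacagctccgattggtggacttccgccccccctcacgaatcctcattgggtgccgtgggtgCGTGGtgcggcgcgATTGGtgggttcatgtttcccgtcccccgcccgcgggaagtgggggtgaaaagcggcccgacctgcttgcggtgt
HSPA5 at chr9:125241344-125241593 (- strand): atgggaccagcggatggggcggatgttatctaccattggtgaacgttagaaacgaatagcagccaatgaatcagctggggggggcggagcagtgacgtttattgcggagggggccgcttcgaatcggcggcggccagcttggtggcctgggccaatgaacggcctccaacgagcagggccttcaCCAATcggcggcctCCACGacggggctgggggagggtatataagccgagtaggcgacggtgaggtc
HYOU1 at chr11:119057206-119057455 (- strand): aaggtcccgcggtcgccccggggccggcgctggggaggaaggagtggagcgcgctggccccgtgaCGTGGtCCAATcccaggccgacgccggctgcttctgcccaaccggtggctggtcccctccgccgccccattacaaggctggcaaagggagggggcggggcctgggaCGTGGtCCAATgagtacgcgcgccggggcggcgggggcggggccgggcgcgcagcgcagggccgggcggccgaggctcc

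In XBP1 the ERSE match began 52 bases before the start, and in HSPA5 it began 66 bases before it. HSP90B1 held 2 ERSE matches, 1 on each strand, and HYOU1 held 2 ERSE-II matches, both on the reverse strand. CRELD2, CALR and CANX were the other genes with ERSE and SDF2L1 the other with ERSE-II. The XBP1-binding core (UPRE core, TGACGTG) matched 1 member promoter, that of HYOU1 (3.45% of 29, against 2% of all promoters). The core of the antioxidant response element through which NRF2 acts (ARE core, TGACNNNGC) matched 5 (17.2%, against 13.6% of all): ERN1, CALR, CRELD2, SDF2L1 and SEL1L. Both strands were searched, the 4 motifs can overlap, and a match describes letters only. For genes with several listed starts, such as XBP1 and CANX, only the first was searched. The promoters in all were not limited to measured genes. The list is made of known genes of this response, so the shares are a description and not a test.

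Against NS siRNA, most of the module was higher in Nrf2 siRNA cells. Of the 32 genes 25 were higher and 2 lower at an adjusted p below 0.05 (limma), and 5 did not pass the test. Across all genes the same test called 21% higher and 26.6% lower. The median difference of the 32 was 0.43 (log2, range -0.37 to 1.77), against -0.05 for all genes. Against mock the module moved less: 16 were higher (16.4% of all genes), 4 lower (16.7%) and 12 did not pass, with a median of 0.15 beside -0.02 for all genes. The controls also differed from each other. In NS siRNA against mock, 22 of the 32 were lower (15.2% of all genes) and 1 was higher (15.6%), with a median of -0.31 beside 0.03 for all genes. These comparisons share samples, so they are not independent of each other. All 3 Nrf2 siRNA arrays lay above all 6 control arrays in 18 genes (14.9% of all genes) and below all 6 in 1 (17%), and in 13 they overlapped.

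**Figure D1:**
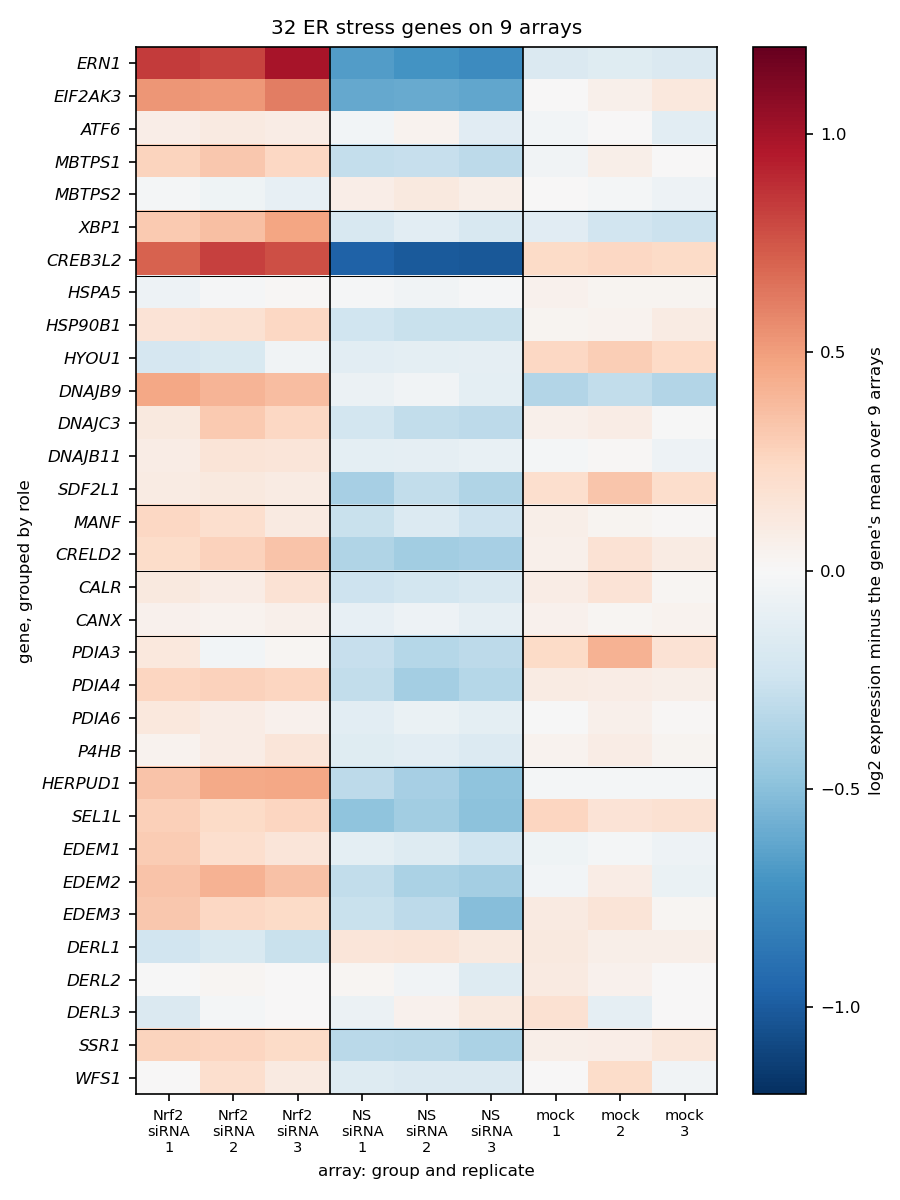
Log2 expression of the 32 measured genes (rows, in groups by role) on each of the 9 arrays (columns), minus the gene's mean over the 9 arrays, with red above and blue below that mean. The 3 NS siRNA columns are blue in most rows, the 3 Nrf2 siRNA columns red in most, and mock lies between in many rows; DERL1 runs the other way.

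By the brightest probe sets, the 2 sensors that carry a kinase domain rose and ATF6 did not pass the test. ERN1 (IRE1, a kinase and RNase) read 9.85, 9.82 and 10.00 in Nrf2 siRNA, against 8.34, 8.30 and 8.26 in NS siRNA and 8.83, 8.86 and 8.83 in mock. All 3 Nrf2 siRNA arrays lay above all 6 controls, and NS siRNA lay below mock. The difference was 1.59 ± 0.05 against NS siRNA (SE of the fit, 3.01-fold, adjusted p = 1.46e-10) and 1.04 ± 0.05 against mock (2.06-fold, adjusted p = 1.16e-08). This rests on 1 of 3 probe sets: another differed by 0.01 against NS siRNA (adjusted p = 0.889), and another was called the other way, at -0.29 (adjusted p = 0.00387). Averaged over the 3, the difference was 0.44 against NS siRNA and 0.36 against mock, and the fall of NS siRNA below mock was no longer called (-0.08, adjusted p = 0.154). The targets of these probe sets within the locus were not mapped here.

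EIF2AK3 (PERK, which phosphorylates the initiation factor eIF2 alpha) read 10.45, 10.43 and 10.53 in Nrf2 siRNA, against 9.30, 9.31 and 9.29 in NS siRNA and 9.92, 9.98 and 10.04 in mock. The 3 groups did not overlap, with NS siRNA lowest. The difference was 1.17 ± 0.05 against NS siRNA (2.25-fold, adjusted p = 8.06e-10), and 0.49 ± 0.05 against mock (1.40-fold, adjusted p = 4.25e-06). Between the controls it was -0.68 (adjusted p = 3.07e-07). Its other probe set, which lies below the array medians, differed by -0.13 against NS siRNA (adjusted p = 0.19), and the mean of both gave 0.52 against NS siRNA and 0.24 against mock.

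ATF6 read 9.88, 9.91 and 9.90 in Nrf2 siRNA, against 9.77, 9.85 and 9.67 in NS siRNA and 9.77, 9.81 and 9.68 in mock. The Nrf2 siRNA arrays were the 3 highest, by a narrow margin. The difference of 0.13 against NS siRNA (95% interval 0.01 to 0.25, adjusted p = 0.0609) and that of 0.14 against mock (adjusted p = 0.0617) missed the threshold. The other 3 ATF6 probe sets were higher than in NS siRNA by 0.27, 0.35 and 0.25, each with an adjusted p below 0.05. The ATF6 difference from NS siRNA passed under 7 of 19 alternatives, of which the mean of its probe sets and the most variable set do not use the brightest set alone.

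The 2 proteases that process ATF6 moved apart. MBTPS1, the site-1 protease, read 11.22, 11.27 and 11.20 in Nrf2 siRNA, against 10.67, 10.67 and 10.64 in NS siRNA and 10.91, 11.02 and 10.96 in mock. The 3 groups did not overlap, and the difference was 0.57 against NS siRNA (adjusted p = 3.18e-07) and 0.27 against mock (adjusted p = 0.000403). MBTPS2, the site-2 protease, averaged 11.57 ± 0.04 in Nrf2 siRNA, 11.72 ± 0.02 in NS siRNA and 11.60 ± 0.03 in mock (SD, n = 3 each). It was lower than in NS siRNA by a small step (-0.15, adjusted p = 0.0121) and differed from mock by -0.03 (adjusted p = 0.602).

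Both transcription factors of the list rose against both controls. XBP1, the factor made from the mRNA that IRE1 splices, read 11.22, 11.27 and 11.38 in Nrf2 siRNA, against 10.72, 10.78 and 10.71 in NS siRNA and 10.77, 10.68 and 10.65 in mock. Here NS siRNA and mock overlapped and Nrf2 siRNA stood above both. The difference was 0.55 against NS siRNA (adjusted p = 2.19e-06) and 0.59 against mock (adjusted p = 2.53e-06), and 0.04 between the controls (adjusted p = 0.662). The array value does not separate spliced from unspliced XBP1 mRNA. Its other probe set, below the array medians, gave 0.07 against NS siRNA (adjusted p = 0.331), and the mean of both gave 0.31 against NS siRNA and 0.28 against mock.

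CREB3L2, an ER-anchored bZIP factor known to raise secretory pathway genes, read 10.97, 11.08 and 11.04 in Nrf2 siRNA, against 9.29, 9.25 and 9.25 in NS siRNA and 10.49, 10.52 and 10.49 in mock. It had the widest range of the 32 genes. The difference was 1.77 ± 0.04 against NS siRNA (3.40-fold, adjusted p = 1.92e-11) but 0.53 ± 0.04 against mock (1.44-fold, adjusted p = 1.2e-06). NS siRNA was itself lower than mock (-1.24, adjusted p = 1.33e-09). Its other 2 probe sets, both dimmer, differed from NS siRNA by -0.26 (adjusted p = 0.0039, called lower) and 0.07 (adjusted p = 0.347), and the mean of the 3 gave 0.52 against NS siRNA and 0.16 against mock.

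**Figure D2:**
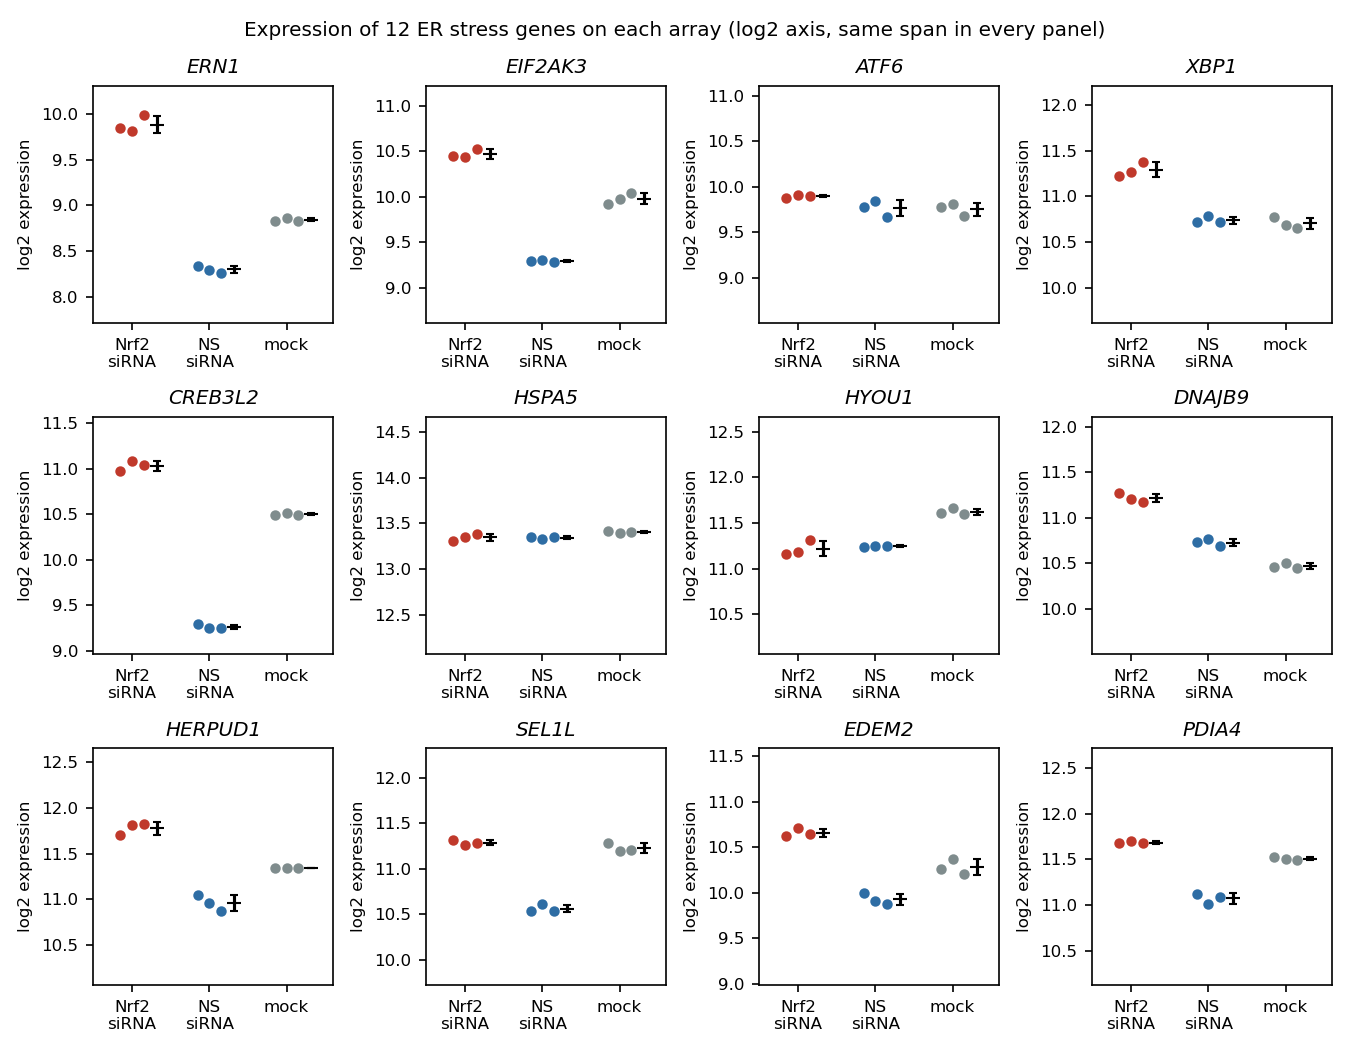
Log2 expression on each array (points) for 12 of the genes in Nrf2 siRNA, NS siRNA and mock, with the mean and SD of 3 arrays beside the points; every panel spans the same log2 distance. ERN1, EIF2AK3, CREB3L2 and HERPUD1 are lowest in NS siRNA, XBP1 and DNAJB9 are highest in Nrf2 siRNA with NS siRNA at or above mock on average, and HSPA5 lies between 13.31 and 13.42 throughout.

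Among 7 chaperones and cochaperones of the ER lumen, 5 were higher and none lower against NS siRNA (21% and 26.6% of all genes). Against mock 4 were higher and 2 lower (16.4% and 16.7% of all genes). HSPA5 (BiP, the main ER Hsp70 and the usual readout of the response) read 13.31, 13.36 and 13.38 in Nrf2 siRNA, against 13.36, 13.33 and 13.35 in NS siRNA and 13.42, 13.40 and 13.40 in mock. The Nrf2 siRNA and NS siRNA arrays overlapped, and the difference was 0.01 against NS siRNA (95% interval -0.08 to 0.09, adjusted p = 0.926) and -0.06 against mock (adjusted p = 0.323). A dimmer HSPA5 probe set differed by 0.34 (adjusted p = 0.000326), and the mean of both by 0.17 (adjusted p = 0.00269), so the absence of a call depends on the probe set.

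DNAJB9 (ERdj4, a BiP cochaperone known as a target of XBP1) read 11.27, 11.21 and 11.18 in Nrf2 siRNA, against 10.74, 10.76 and 10.69 in NS siRNA and 10.46, 10.51 and 10.45 in mock. The 3 groups were separate, and DNAJB9 was the 1 gene of the 32 called higher when NS siRNA was set against mock (0.26, adjusted p = 0.000714). Its difference was 0.49 against NS siRNA (adjusted p = 1.38e-06) and 0.75 against mock (1.68-fold, adjusted p = 6.35e-08). All 3 of its probe sets rose against both controls, the other 2 by 0.37 and 0.28 against NS siRNA.

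DNAJC3 (p58IPK, a cochaperone and inhibitor of PERK) read 10.51, 10.70 and 10.64 in Nrf2 siRNA, against 10.17, 10.09 and 10.07 in NS siRNA and 10.45, 10.48 and 10.38 in mock. The lowest Nrf2 siRNA array lay just above the highest mock array. The difference was 0.50 against NS siRNA (adjusted p = 8.23e-06) and 0.18 against mock (adjusted p = 0.0249), and the mean of its 4 probe sets gave 0.29 against NS siRNA. The call against mock was lost without Nrf2 siRNA replicate 2 (adjusted p = 0.0994) or 3 (0.0728), and without mock replicate 1 (0.0556) or 3 (0.0966).

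HSP90B1 (GRP94, the ER Hsp90) averaged 11.48 ± 0.05 in Nrf2 siRNA, 11.03 ± 0.02 in NS siRNA and 11.34 ± 0.03 in mock, a difference of 0.45 against NS siRNA (adjusted p = 2.03e-06) and 0.14 against mock (adjusted p = 0.021). The call against mock was lost with the mean of its probe sets (0.08, adjusted p = 0.446), and without Nrf2 siRNA replicate 3 or mock replicate 1 or 2. DNAJB11, a BiP cochaperone, rose by 0.24 against NS siRNA (adjusted p = 0.000532) and by 0.15 against mock (adjusted p = 0.0136), and the call against mock was lost without mock replicate 3 (adjusted p = 0.0587). SDF2L1, a partner of DNAJB11, averaged 9.75 ± 0.01, 9.30 ± 0.05 and 9.90 ± 0.07 in Nrf2 siRNA, NS siRNA and mock. It was higher than in NS siRNA by 0.45 (adjusted p = 6.62e-06) and lower than in mock by a margin near the threshold (-0.14, adjusted p = 0.0397), a call lost without any 1 Nrf2 siRNA array, without mock replicate 2 or 3 and without NS siRNA replicate 3. HYOU1 (GRP170, a BiP exchange factor) did not differ detectably from NS siRNA (-0.02, 95% interval -0.13 to 0.08, adjusted p = 0.705) and was lower than in mock (-0.41, adjusted p = 3.16e-05). NS siRNA was itself lower than mock in HYOU1 (-0.38, adjusted p = 6.46e-05).

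Set beside the promoters printed above, XBP1 and HSP90B1, each with an ERSE match, were higher in Nrf2 siRNA than in NS siRNA. HSPA5 with the same element was not called by its brightest probe set, while its dimmer one was higher (0.34). HERPUD1 with ERSE-II rose against NS siRNA, and HYOU1 with 2 matches did not. The carriers not printed, CRELD2 (0.67), SDF2L1 (0.45), CALR (0.35) and CANX (0.14), were called higher than in NS siRNA, as were 25 of the 32 genes. Against mock, XBP1 (0.59), HERPUD1 (0.44), CRELD2 (0.17) and HSP90B1 (0.14) were called higher, and HYOU1 (-0.41) and SDF2L1 (-0.14) lower. HSPA5 (-0.06), CALR (0.03) and CANX (0.01) were not called against mock, where 16 of the 32 genes were higher. No test was made of this.

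MANF and CRELD2, stress proteins of the ER lumen that can be secreted, both rose. CRELD2 read 10.81, 10.86 and 10.94 in Nrf2 siRNA, against 10.23, 10.17 and 10.20 in NS siRNA and 10.65, 10.76 and 10.69 in mock. The Nrf2 siRNA arrays lay above all controls, close to mock. The difference was 0.67 against NS siRNA (adjusted p = 1.51e-07) and 0.17 against mock (adjusted p = 0.0146). The call against mock was lost without Nrf2 siRNA replicate 3 (adjusted p = 0.0628) or mock replicate 1 (0.0678). MANF differed by 0.41 against NS siRNA (adjusted p = 1.53e-05) and by 0.15 against mock (adjusted p = 0.035), a call lost without Nrf2 siRNA replicate 1 or 2 and without any 1 mock array.

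The lectin chaperones and disulfide isomerases fold glycoproteins and form disulfide bonds. They were higher than in NS siRNA in all 6 cases (21% of all genes) and close to mock in most. CALR (calreticulin) differed by 0.35 and CANX (calnexin) by 0.14 from NS siRNA (adjusted p = 6.06e-05 and 0.0115). Against mock they differed by 0.03 and 0.01 (adjusted p = 0.651 and 0.833). The call of CANX against NS siRNA was lost with the mean of its 5 probe sets (0.07, adjusted p = 0.11). PDIA4 (ERp72) read 11.68, 11.70 and 11.68 in Nrf2 siRNA, against 11.12, 11.01 and 11.08 in NS siRNA and 11.52, 11.51 and 11.50 in mock. The 3 groups did not overlap, and the difference was 0.61 against NS siRNA (adjusted p = 1.33e-07) and 0.18 against mock (adjusted p = 0.00656). PDIA4's other probe set gave 0.62 against NS siRNA and -0.07 against mock (adjusted p = 0.378 for the difference from mock).

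PDIA3 (ERp57, the partner of calreticulin and calnexin) was higher than in NS siRNA by 0.35 (adjusted p = 0.000538; 0.59 and 0.67 by its other probe sets) and lower than in mock (-0.24, adjusted p = 0.0119; 0.0519 without Nrf2 siRNA replicate 2). NS siRNA differed from mock by -0.59. The direction against mock depends on the probe set: another was called higher than mock by 0.20 (adjusted p = 0.0322), and the mean of the 3 differed by 0.03. P4HB (the founding disulfide isomerase) and PDIA6 differed from NS siRNA by 0.24 and 0.20 (adjusted p = 0.000649 and 0.00202) and from mock by 0.04 and 0.07 (adjusted p = 0.58 and 0.281). Dimmer probe sets gave up to 0.74 for CALR and 0.40 for P4HB against NS siRNA. The brightest probe sets of HSP90B1, CALR, PDIA6 and DERL3 are of a design that can pick up related transcripts, so their levels are uncertain. Further probe sets of HSP90B1 and MBTPS2 that name several genes were left out.

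**Figure D3:**
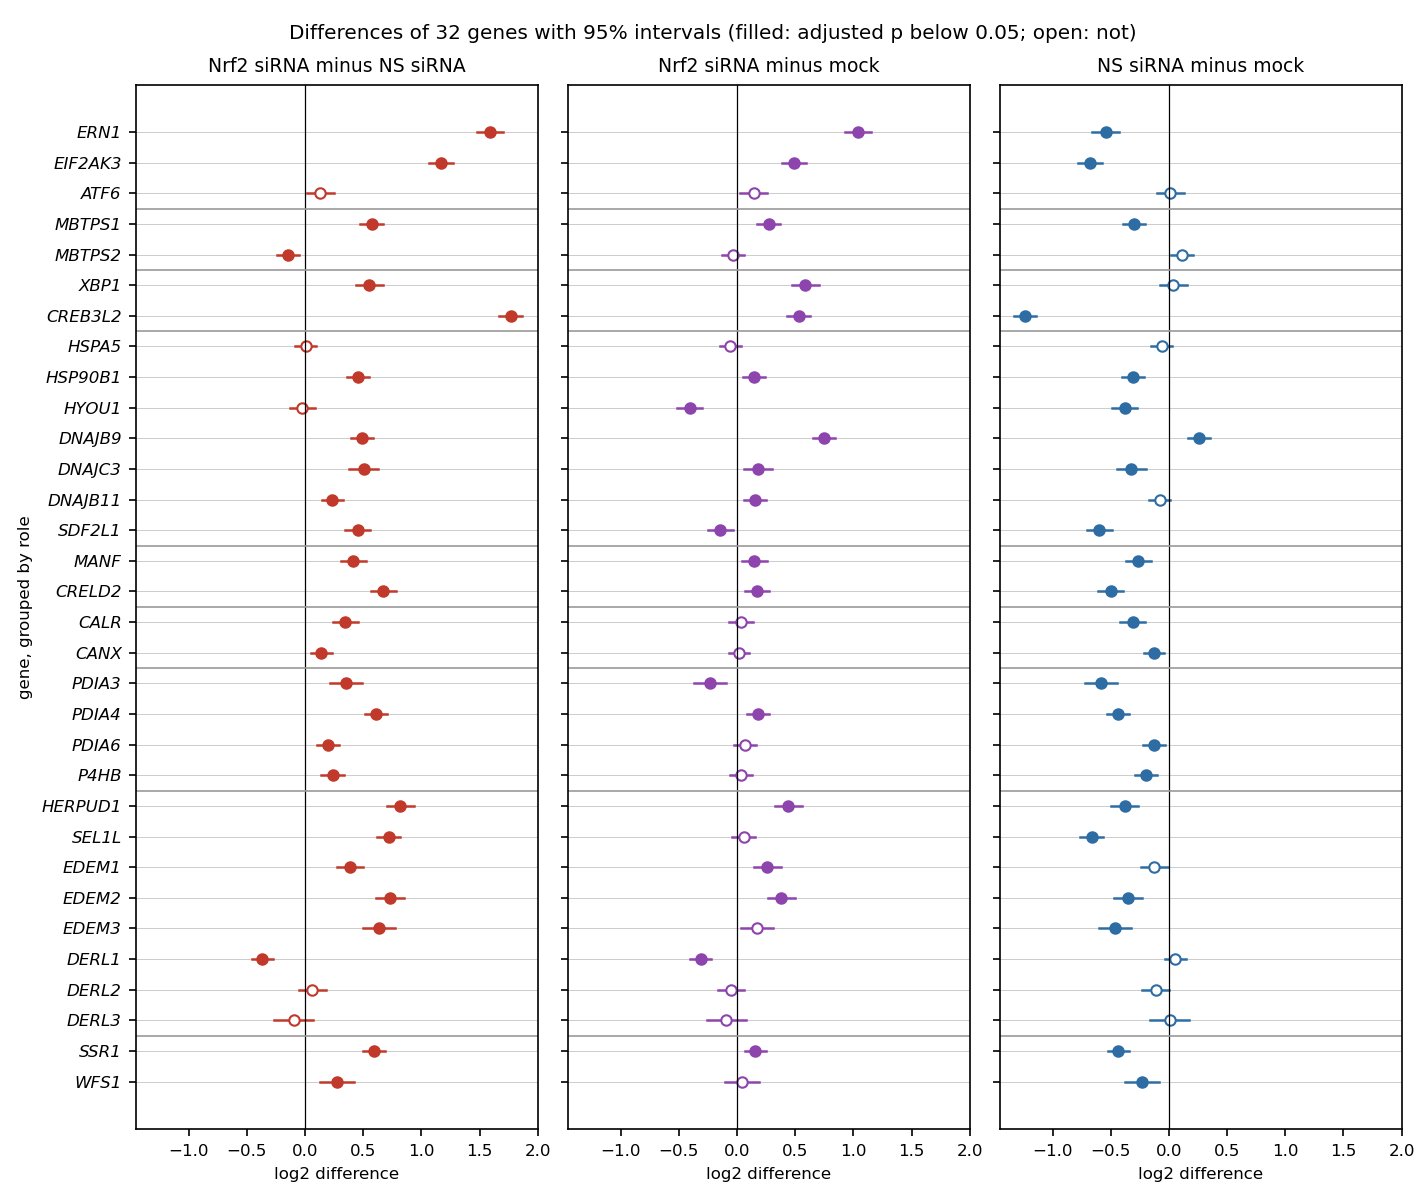
Log2 differences of the 32 genes with 95% intervals from the fit over 9 arrays, in groups by role, for Nrf2 siRNA minus NS siRNA, Nrf2 siRNA minus mock and NS siRNA minus mock; filled points have an adjusted p below 0.05. In the first panel 25 filled points lie right of 0 and 2 left of it, in the second 16 right and 4 left, and in the third 1 right and 22 left.

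ER-associated degradation recognises misfolded proteins, moves them to the cytosol and ubiquitinates them. Of its 8 measured genes 5 were higher and 1 lower against NS siRNA (21% and 26.6% of all genes). Against mock 3 were higher and 1 lower (16.4% and 16.7% of all genes). HERPUD1, a membrane scaffold of the SYVN1 ligase complex, read 11.70, 11.81 and 11.83 in Nrf2 siRNA, against 11.04, 10.96 and 10.87 in NS siRNA and 11.34, 11.34 and 11.34 in mock. The 3 groups were separate, and the difference was 0.82 against NS siRNA (1.77-fold, adjusted p = 5.91e-08) and 0.44 against mock (1.36-fold, adjusted p = 3.07e-05). Its other probe set, below the array medians, gave 0.05 against NS siRNA (adjusted p = 0.712), and the mean of both gave 0.44 against NS siRNA and 0.23 against mock.

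SEL1L, the adaptor of the same ligase, read 11.31, 11.26 and 11.28 in Nrf2 siRNA, against 10.54, 10.61 and 10.54 in NS siRNA and 11.29, 11.19 and 11.21 in mock. Nrf2 siRNA overlapped mock, and only NS siRNA stood apart, below both. The difference was 0.72 against NS siRNA (adjusted p = 4.69e-08) and 0.06 against mock (adjusted p = 0.399). All 4 SEL1L probe sets were called higher against NS siRNA and none against mock.

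EDEM1, EDEM2 and EDEM3 act on the mannoses of misfolded glycoproteins. EDEM2 read 10.63, 10.71 and 10.64 in Nrf2 siRNA, against 10.00, 9.91 and 9.88 in NS siRNA and 10.26, 10.37 and 10.20 in mock. The groups were separate, with a difference of 0.73 against NS siRNA (adjusted p = 2.09e-07) and 0.38 against mock (adjusted p = 0.000128). EDEM3 read 10.49, 10.41 and 10.39 in Nrf2 siRNA, against 9.90, 9.85 and 9.65 in NS siRNA and 10.27, 10.31 and 10.19 in mock. NS siRNA replicate 3 was the lowest array, and Nrf2 siRNA lay just above mock. The difference was 0.63 against NS siRNA (adjusted p = 3.2e-06) and 0.17 against mock (adjusted p = 0.0567; past the threshold under 6 of 19 alternatives). EDEM1 rose by 0.39 against NS siRNA (adjusted p = 4.65e-05) and by 0.26 against mock (adjusted p = 0.00171).

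The derlins, membrane proteins of the export channel, were lower or not called against NS siRNA by their brightest probe sets. DERL1 averaged 11.39 ± 0.04 in Nrf2 siRNA, 11.76 ± 0.02 in NS siRNA and 11.70 ± 0.02 in mock, below all 6 controls on all 3 arrays. The difference was -0.37 against NS siRNA (adjusted p = 1.06e-05) and -0.31 against mock (adjusted p = 8.28e-05), but 1 of its 4 probe sets carried the call, and the mean of the 4 differed by -0.06 from each control. DERL2 differed from NS siRNA by 0.06 (adjusted p = 0.335), while its other probe set was higher by 0.30 (adjusted p = 0.000131). DERL3 averaged 8.65 ± 0.10 in Nrf2 siRNA, 8.75 ± 0.09 in NS siRNA and 8.75 ± 0.15 in mock and was not called (adjusted p = 0.325 against NS siRNA).

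The remaining 2 genes sit in the ER membrane. SSR1, a subunit of the translocon-associated complex, read 12.56, 12.55 and 12.52 in Nrf2 siRNA, against 11.98, 11.96 and 11.92 in NS siRNA and 12.36, 12.37 and 12.43 in mock. The 3 groups did not overlap, and the difference was 0.59 against NS siRNA (adjusted p = 1.33e-07, all 6 probe sets higher) and 0.16 against mock (adjusted p = 0.0107). The mean of the 6 gave 0.40 against NS siRNA and 0.03 against mock (adjusted p = 0.543). WFS1 (wolframin, a membrane glycoprotein of ER calcium balance) differed by 0.28 against NS siRNA (adjusted p = 0.00511) and by 0.04 against mock (adjusted p = 0.686).

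The list was also read at the level of probe sets. The 32 genes had 83 single-gene probe sets, 25 genes having several and 7 having 1. Against NS siRNA 58 of the 83 were higher and 5 lower, where 20.2% and 21.5% of all single-gene probe sets were called higher and lower. Of the 20 that were not called, 7 lay below the array medians. In 19 of the 25 genes every probe set had the same sign against NS siRNA, and in ERN1 and CREB3L2 a probe set was called the opposite way to the brightest.

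**Figure D4:**
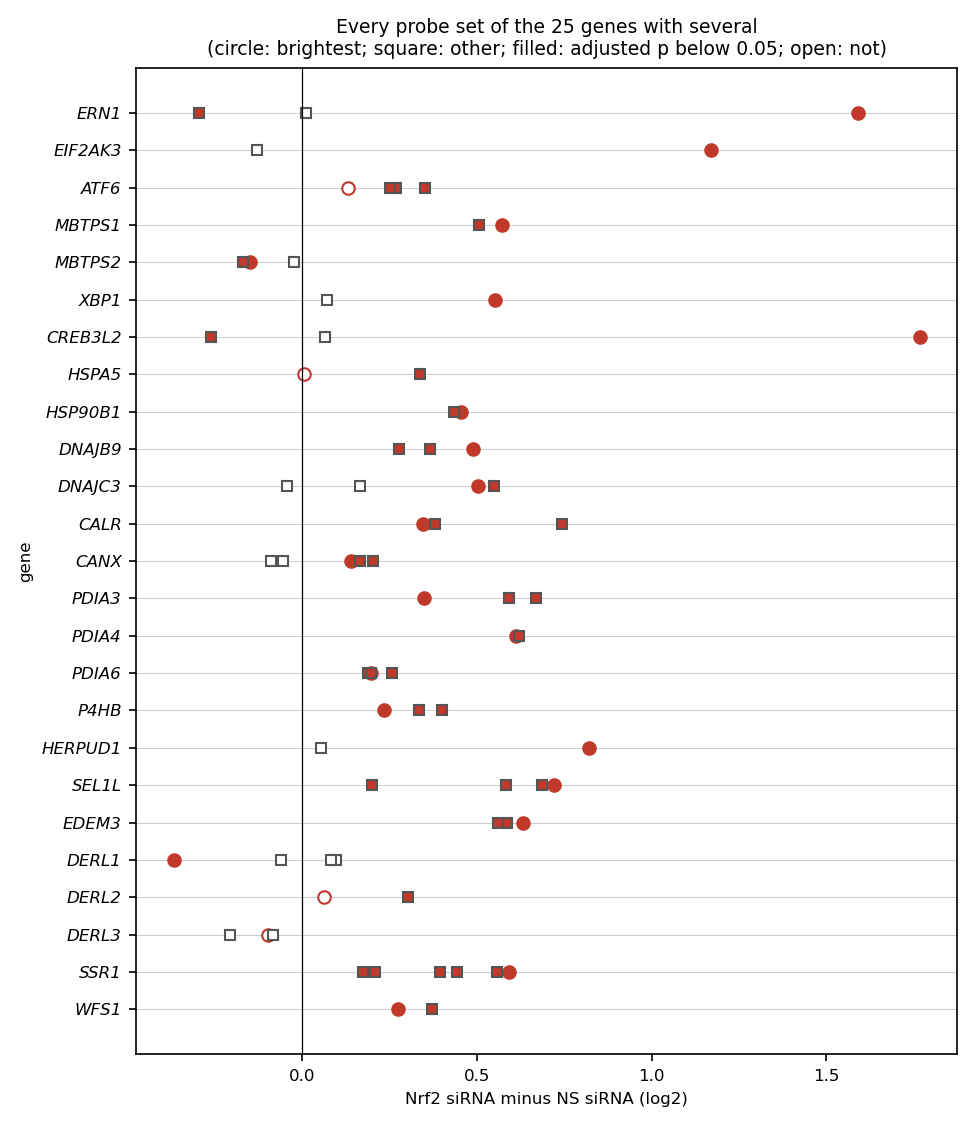
Log2 difference of Nrf2 siRNA minus NS siRNA for every single-gene probe set of the 25 genes that have several; circles are the brightest set, squares the others, and filled symbols have an adjusted p below 0.05 over all single-gene probe sets. SSR1, EDEM3, SEL1L, MBTPS1, HSP90B1, DNAJB9, CALR, WFS1 and the 4 disulfide isomerases have every set called higher. ERN1, EIF2AK3 and CREB3L2 show 1 large difference beside sets near or below 0.

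Of 77 further genes of the pathway listed by function 71 were measured. Against NS siRNA 31 were higher and 17 lower (21% and 26.6% of all genes), with a median of 0.07. Against mock 26 were higher and 15 lower (16.4% and 16.7% of all genes), with a median of 0.04. In NS siRNA against mock 12 were higher and 24 lower (15.6% and 15.2% of all genes).

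The genes known to act in PERK signalling and as ATF4 targets were mostly lower than in NS siRNA, and divided against mock. Of 11 measured, 8 were lower and none higher against NS siRNA (26.6% and 21% of all genes), with a median of -0.35. Against mock 3 were higher and 4 lower (16.4% and 16.7% of all genes), with a median of 0.02. NS siRNA was above mock in 7 and below in none (15.6% and 15.2% of all genes). CEBPB, a bZIP factor, differed by -1.01 against NS siRNA (adjusted p = 1.13e-09) and -1.03 against mock (adjusted p = 2.07e-09). ASNS (asparagine synthetase) differed by -1.01 against NS siRNA (adjusted p = 5.07e-08) and -0.39 against mock (adjusted p = 0.000407). TRIB3, a pseudokinase, differed by -0.59 (adjusted p = 1.69e-06) and -0.30 (adjusted p = 0.00085). Named after their values were seen, ATF4 itself differed by -0.23 against NS siRNA (adjusted p = 0.000443) and 0.03 against mock (adjusted p = 0.622). ATF3 differed by -0.66 against NS siRNA (adjusted p = 3.19e-06) and by 0.27 against mock (adjusted p = 0.00685). Also named after their values were seen, CHAC1 and DDIT3 were not lower. CHAC1 differed by 0.07 against NS siRNA (adjusted p = 0.584) and by 0.61 against mock (adjusted p = 0.000563). DDIT3 differed by 0.13 (adjusted p = 0.108) and 0.15 (adjusted p = 0.0794), not called, with its 3 Nrf2 siRNA arrays above all 6 controls.

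The groups of folding, translocation and ER-phagy held more genes that were higher than lower. Of 14 genes of folding and glycan quality control 9 were higher and 1 lower against NS siRNA (21% and 26.6% of all genes). Against mock 9 were higher and 3 lower (16.4% and 16.7% of all genes). DNAJC10, a disulfide reductase, rose by 0.70 (adjusted p = 3.87e-08), ERP44 by 0.62 (adjusted p = 7.44e-08) and the glycoprotein glucosyltransferase UGGT1 by 0.58 (adjusted p = 1.06e-07) against NS siRNA. Their differences from mock were 0.35, 0.29 and 0.17. Of 14 translocation and retrieval genes 8 were higher and none lower against NS siRNA (21% and 26.6% of all genes). They were led by SSR4 (0.62, adjusted p = 1.49e-07), the KDEL receptor KDELR3 (0.49, adjusted p = 1.79e-06) and the COPII subunit SEC24D (0.78, adjusted p = 9.8e-06). Against mock 5 of the 14 were higher and none lower (16.4% and 16.7% of all genes), and SSR4, KDELR3 and SEC24D differed by 0.31, 0.33 and 0.42. Of 5 ER-phagy receptors 4 were higher and none lower against NS siRNA (21% and 26.6% of all genes). RTN3 rose by 0.65 (adjusted p = 1.46e-06), RETREG1 by 0.79 (adjusted p = 3.17e-06) and CCPG1 by 0.22 (adjusted p = 0.00299). Against mock 2 of the 5 were higher and none lower (16.4% and 16.7% of all genes). RTN3 and RETREG1 differed from mock by 0.48 and 0.56, and CCPG1 was not called (0.10, adjusted p = 0.154). In NS siRNA against mock 8 folding genes were lower and none higher, and 6 translocation genes were lower and 2 higher. Of the ER-phagy receptors 2 were lower and none higher in that comparison (15.2% and 15.6% of all genes).

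Of 16 genes of the degradation machinery 7 were higher and 5 lower against NS siRNA, beside 21% and 26.6% of all genes. The lectin OS9 rose by 0.68 (adjusted p = 3.64e-08), the VCP cofactor NPLOC4 by 0.65 (adjusted p = 1.08e-07) and the mannosidase MAN1B1 by 0.33 (adjusted p = 9.77e-05). Against mock 4 of the 16 were higher and 4 lower (16.4% and 16.7% of all genes). OS9 differed from mock by 0.24 (adjusted p = 0.000545), NPLOC4 by -0.01 (adjusted p = 0.936) and MAN1B1 by 0.01 (adjusted p = 0.909). Among the genes lower than in NS siRNA, named after their values were seen, was the ATPase VCP. VCP differed by -0.29 against NS siRNA (adjusted p = 0.000706) and -0.16 against mock (adjusted p = 0.0388). Its cofactor UFD1 differed by -0.32 (adjusted p = 0.000179) and -0.19 (adjusted p = 0.00962), and AUP1 by -0.30 (adjusted p = 0.000324) and -0.38 (adjusted p = 7.21e-05). The Nrf2 siRNA arrays of these genes lay below all 6 controls, as did those of UBE2J2, and UBE2G2, the other gene called lower, overlapped them. Of 5 measured genes of IRE1 output and partners 2 were higher and 2 lower against NS siRNA (21% and 26.6% of all genes). SEC61A1 (0.42, adjusted p = 7.15e-06) and TMBIM6 (0.37, adjusted p = 1.07e-05) rose, and the XBP1 mRNA ligase RTCB was lower (-0.17, adjusted p = 0.0116). Against mock 2 were higher and 2 lower (16.4% and 16.7% of all genes), and RTCB differed by -0.03 (adjusted p = 0.669). Of 6 other bZIP factors of the ER membrane or ATF6 network, 1 was higher and 1 lower against NS siRNA (21% and 26.6% of all genes). CREB3L1 was higher (0.53, adjusted p = 1.99e-05), and the other 4 did not pass the test. CREB3L3, which lies below the array medians, was lower (-0.20, adjusted p = 0.0069) and differed from mock by -0.02 (adjusted p = 0.805). Against mock 1 of the 6 was higher and 2 lower (16.4% and 16.7% of all genes).

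**Figure D5:**
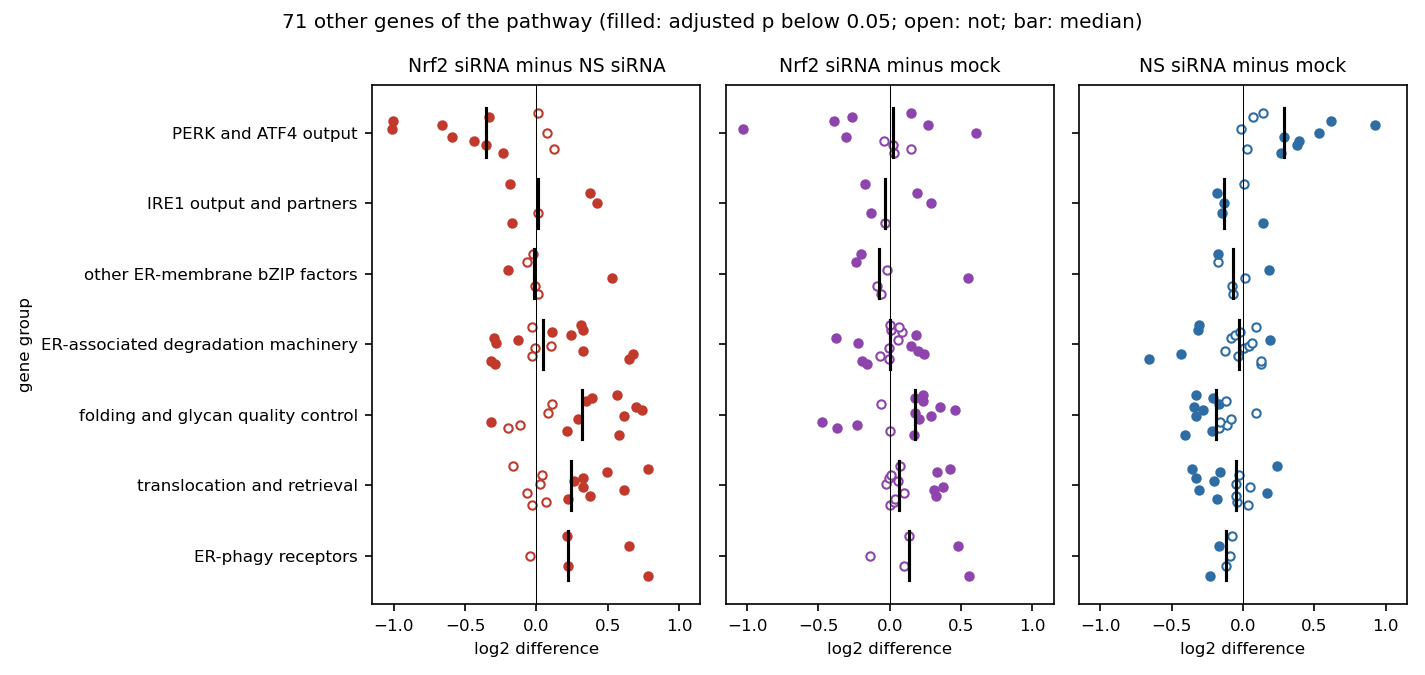
Log2 differences of the 71 further genes by group (rows) for Nrf2 siRNA minus NS siRNA, Nrf2 siRNA minus mock and NS siRNA minus mock; filled points have an adjusted p below 0.05 and the bar is the group's median. The PERK and ATF4 genes have a median of -0.35 in the first panel and 0.29 in the third, and folding and glycan quality control genes 0.32 and -0.19.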

How the data were processed

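Total RNA from 9 A549 cultures, 3 per group by their titles, was labelled and hybridised to 9 arrays, per the labels' protocols. The authors deposited log2 values. RMA is named in the submitters' processing notes, with no version, and its settings are not known here. Scan dates and detection calls were not used here, so batches could not be examined. The table held 54675 probe sets and 0 unused columns. Of these 62 were controls, 41091 named 1 gene in the array's annotation table, 1801 several and 11721 none. Symbols of 41037 were updated through a RefSeq gene table.

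One linear model with 3 group means was fitted with limma 3.58.1 (lmFit, eBayes) in R 4.3.3 over all 9 arrays (6 residual degrees of freedom, prior 6.12). P values are two-sided and Benjamini-Hochberg adjusted over 19775 genes, or over 41091 probe sets where single probe sets are given. The fit was tested on simulated data. The precision is limited by 3 arrays a group.

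The members and gene lists were chosen with earlier results of these data known. All members are named. Array values are given for those called with a log2 difference of at least 0.5 either way in an Nrf2 siRNA contrast, and for the sensors, XBP1 and HSPA5. Of the further genes, up to 3 called ones a group, ranked by adjusted p in the NS siRNA contrast, are named. ATF4, ATF3, CHAC1, DDIT3, VCP, UFD1, AUP1, UBE2J2 and UBE2G2 were added. KDELR2, PDIA5, SEC61G, TRAF2 and TXNDC5 were not analysed here, and some genes are not reported. Alternatives covered scaling, dim genes, the probe set, variances, samples, the replicate block and the threshold.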

Additional observations from a re-analysis of the deposited data

How the results depend on the processing

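Of 96 values (32 genes in 3 comparisons), 69 kept their call, or its absence, under all 19 alternatives, and so did 1727 of 1824 values under an alternative. Against NS siRNA, 25 higher became 24 at an adjusted p below 0.01, 27 with probe sets averaged, 28 with the most variable set, and 25 or 26 without any 1 array. Against mock, 16 higher became 10 at that threshold and 12 to 18 without any 1 array, and 4 lower became 2 at that threshold or with probe sets averaged per gene, and 2 to 4 without any 1 array. Against NS siRNA 2 lower became 1 with the mean of probe sets or the stricter threshold. In NS siRNA against mock 1 higher became 2 after quantile normalization, among genes above the median level, and with trend and robust variances, and 22 lower became 19 to 22 without any 1 array, where CANX, PDIA6 and WFS1 lost calls. A value called on at least 1 side turned its direction only with the choice of probe set, while uncalled values near 0 also turned under scaling or without 1 array. ATF6 in NS siRNA against mock was -0.15 with the mean (adjusted p = 0.019) and -0.20 with the most variable set (adjusted p = 0.0103). Against mock, DERL2 was 0.24 with the most variable set, PDIA3 0.026 with the mean and 0.12 with the most variable set, and PDIA4 -0.07 with the most variable set. ATF6 against NS siRNA passed the threshold under 7 of the 19 alternatives, and SDF2L1 against mock lost its call under 9. The deviations of same-numbered replicates from their group means correlated at -0.21 to 0.23, and whether such replicates were handled together was not tested. With the replicate as a block 26 genes were higher and 2 lower against NS siRNA, 18 and 4 against mock, and 1 and 22 in NS siRNA against mock, and calls over all genes numbered 9720, 6804 and 6366, against 9422, 6530 and 6082 without it. Dim probe sets have no background test. The cause of these shifts was not tested.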
